A study of Mus musculus with 6 samples.

Results

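The MYC-MAX network is a family of transcription factors built around MAX, and it was followed here through the mRNA of 10 genes in mouse B cells with and without CpG. Members were chosen by gene symbol as the MYC proteins Myc and Mycn, their partner Max, the MAX-binding antagonists Mxd1, Mxd3, Mxd4, Mxi1 and Mnt, and the further dimer partners Mga and Mlx. All 10 symbols were found among 23420 genes with a value in each sample. B cells were isolated with beads from spleens of WT BALB/c mice, 3 animals of 7 to 11 weeks of age, and placed in culture for 4 hours. CpG-stimulated cells received CpG ODN 1826, a synthetic DNA that activates TLR9, at 10 μg/ml, and unstimulated cells received none. Each culture held 10 M cells at a density of 10 M per ml. Both groups had 3 samples, with replicates 1 and 2 from female and replicate 3 from male mice.

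MYC and MAX dimerize through a leucine zipper and bind DNA at E-boxes, where they activate genes of growth, ribosome production and metabolism. MXD proteins, MXI1 and MNT take up the same MAX and bring the SIN3-HDAC corepressor to the same sites, while MGA joins MAX to a Polycomb complex and MLX links the network to glucose-sensing factors. In B cells, MYC is known for its rapid induction after activation and for its role in growth before division.

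Expression values are log2 CPM (read counts scaled to a fixed library size), quantile normalized between samples. For a common library of 17.8 M reads, a gene with 10 reads lies at -0.76. One with 3 reads, used as detection limit, lies at -2.34. Groups were compared gene by gene with limma and Benjamini-Hochberg adjustment (FDR) over the 11233 genes above the value of 10 reads in at least 3 samples. All 10 members passed this filter, 9 of them with all 6 samples above it and Mxd3 with 2 samples of each group. CpG-stimulated cells had higher values of 2 members (Myc and Mycn) at an FDR under 0.05, where 37.6% of all tested genes were higher. They had lower values of 4 members (Mxd1, Mxd4, Mxi1 and Mnt), against 36.7% of tested genes. A log2FC over 1 was reached by 2 of 10 members and by 15.8% of tested genes, and a log2FC under -1 by 1 member, Mxd4, and by 15.3%. Myc passed a log2FC of 1 narrowly, with 0.98 without CpG-stimulated replicate 1 and 0.95 without unstimulated replicate 3, and Mycn had 0.89 on the log2(CPM + 1) scale, so that 1 member remained above 1 in each of these fits. The groups did not overlap, with stimulated samples above, in 2 members and 39.1% of tested genes, and with stimulated samples below in 4 members and 38.6%. The members' median log2FC was 0.033, and that of all tested genes 0.0033. With 10 members these shares lie near those of all genes, so the network is described gene by gene. An exact permutation test of 3 samples against 3 cannot give a p value under 0.1, which is why single genes were judged by limma.

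**Figure D1:**
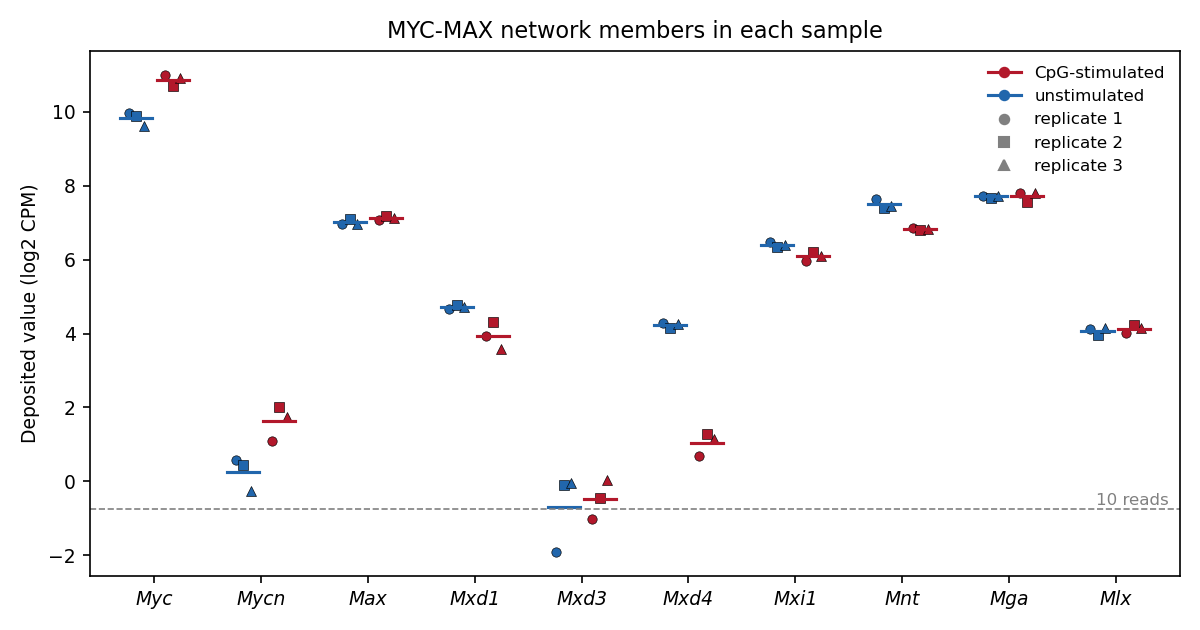
Deposited log2 CPM of the 10 network members (vertical axis) in each CpG-stimulated (red) and unstimulated (blue) sample, with bars at the group means of 3 samples, replicates as symbols, and a dashed line at the value of 10 reads. Groups are apart in Myc, Mycn, Mxd1, Mxd4, Mxi1 and Mnt, and the widest gap, in Mxd4, lies between means of 1.04 and 4.23.

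B cell markers were high in every sample, with a median of 9.05 log2 CPM over 7 genes, of which Cd79b was the most abundant. Their summed level was 2438, 2796 and 2740 CPM in stimulated replicates 1 to 3 and 3706, 3711 and 4356 CPM in unstimulated ones, so it was lower in all stimulated samples. The 4 plasma cell markers, led by Jchain, also summed to less, at 468, 532 and 602 CPM against 828, 874 and 1182 CPM. Of 6 T cell markers 0 were above the value of 10 reads in their mean, and Cd3e, Cd4, Cd8a and Cd8b1 did not exceed the detection limit in any sample. The 6 summed to between 0.407 and 0.632 CPM, with Cd3g the most abundant. Of 4 NK cell markers 0 reached it in their mean; Ncr1, Klrk1 and Nkg7 did not exceed the limit, and the sum, mostly Klrb1c in stimulated samples, was 0.727, 1.28 and 1.35 CPM in stimulated and 0.126, 0.140 and 0.160 CPM in unstimulated samples. Myeloid markers reached it in 4 of 7 genes, led by Adgre1, with sums of 10.1, 15.8 and 14.6 CPM against 7.52, 14.9 and 14.6 CPM. Adgre1 rose with a log2FC of 0.83 (FDR = 0.00811), while the less abundant Cd14 (-1.73) and Csf1r (-1.61) had lower means with CpG. Cd14 and Csf1r passed the filter through the 3 unstimulated samples alone, with 0 stimulated samples above the value of 10 reads. The filter thus depended on their difference, and no test is given for them. These 3 genes are named after their values were seen. Among 3 pDC markers, Ccr9 alone was above the value of 10 reads in its mean, and the sums were 1.15, 1.27 and 0.900 CPM against 1.52, 1.99 and 2.35 CPM. Replicate 2 stood apart in both groups in erythroid markers, which summed to 384, 4912 and 611 CPM in stimulated and 404, 3845 and 499 CPM in unstimulated samples. Hbb-bs was the most abundant of the 8 genes with values, 4 were above the value of 10 reads in their mean, and both alpha globin genes (Hba-a1, Hba-a2) as well as Hbb-b1 and also Hbb-b2 had the value of no reads throughout. With replicate 2 of 1 group left out at a time, 2 members remained called as higher and 4 as lower. Each of these fits still held replicate 2 of the other group, and leaving out both was not tested. The part of the B cell, plasma cell, NK cell, myeloid and pDC genes in the results was not tested.

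Myc, which encodes the main activator of the network, measured 11.01, 10.70 and 10.91 log2 CPM in CpG-stimulated replicates 1, 2 and 3 and 9.96, 9.88 and 9.63 in unstimulated ones. All stimulated samples were above all unstimulated samples, and the gene was high in both groups. Means were 10.87 ± 0.16 and 9.82 ± 0.17 (SD, n = 3 each), equal to about 33333 and 16106 reads. Myc rose with a log2FC of 1.05 (SE 0.10, 95% CI 0.82 to 1.28, FDR = 7.77e-06), a 2.07-fold difference. A higher log2FC was found in 1669 tested genes, or 14.9%. Differences between samples of the same number were 1.04, 0.83 and 1.28, with the last in males. In bulk samples such as these, fewer cells of a type and less RNA per cell cannot be told apart. The values are relative levels after quantile normalization, not amounts per cell.

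Mycn encodes N-MYC, a MYC paralog known from early development and neural tumors. It measured 1.10, 2.0 and 1.75 log2 CPM with CpG and 0.57, 0.45 and -0.26 without. Stimulated samples were again above all unstimulated samples, at a level close to the filter, with means that correspond to about 54.1 and 20.7 reads. Mycn, at chr12:12936093-12941914 of GRCm38 on the minus strand, rose with a log2FC of 1.36 (SE 0.31, 95% CI 0.67 to 2.06, FDR = 0.00255). On the log2(CPM + 1) scale, which reduces the changes of low genes, it still passed (FDR = 0.00193, within 0.000969 to 0.0115 over the alternatives). Per kb of exon its mean level in stimulated cells was 0.964 CPM, against 693 CPM for Myc.

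Max encodes the partner that the MYC and MXD proteins need to bind DNA, and lies at chr12:76937269-76962201 on the minus strand. Its values were 7.07, 7.18 and 7.12 log2 CPM with CpG and 6.96, 7.11 and 6.96 without. The groups overlapped, since unstimulated replicate 2 was above stimulated replicate 1, but within replicate numbers the stimulated sample was higher in each case, by 0.11, 0.075 and 0.16. The log2FC of 0.11 (SE 0.066, 95% CI -0.033 to 0.26) did not pass (FDR = 0.141, or 0.0617 with the replicate number as a block), and differences as large as the upper bound were within the error.

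Mxd4 encodes MAD4, a MAX-binding repressor known from differentiating and resting cells, at chr5:34173883-34187720 on the minus strand. It measured 0.68, 1.29 and 1.14 log2 CPM in CpG-stimulated samples and 4.29, 4.14 and 4.26 in unstimulated samples. The groups were far apart, with all stimulated samples at or under 1.29 and all unstimulated samples at or above 4.14. Means of 1.04 ± 0.32 and 4.23 ± 0.081 (SD, n = 3 each) correspond to about 35.9 and 333 reads. Mxd4 fell with a log2FC of -3.19 (SE 0.17, 95% CI -3.58 to -2.81, FDR = 1.20e-07), a 9.15-fold difference. On the log2(CPM + 1) scale the log2FC was smaller, at -2.69, outside this interval, and the call remained (FDR = 6.425e-08). Only 62 of the 11233 tested genes, or 0.552%, had a more negative log2FC. Differences within replicate numbers were -3.61, -2.85 and -3.12. Of its exon bases 6.06% are shared with Gm42846 on the opposite strand, a gene without a value in the files; whether counting used the strand is not stated.

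Mnt encodes the most widely expressed antagonist of MYC and lies at chr11:74830920-74845725 on the plus strand. Its values were 6.85, 6.81 and 6.84 log2 CPM with CpG and 7.63, 7.40 and 7.46 without. Stimulated samples lay close together below all unstimulated ones. Mnt fell with a log2FC of -0.66 (SE 0.070, 95% CI -0.82 to -0.50, FDR = 1.28e-05), a 1.58-fold difference. More negative values were found in 23.7% of tested genes.

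Mxd1 encodes MAD1, which replaces MYC on MAX in differentiating cells, at chr6:86647042-86669161 on the minus strand. It measured 3.92, 4.30 and 3.59 log2 CPM in stimulated and 4.66, 4.77 and 4.73 in unstimulated samples. All stimulated samples were lower, and they varied more (SD 0.36) than the unstimulated ones (SD 0.055). The log2FC was -0.78 (SE 0.15, 95% CI -1.13 to -0.44, FDR = 0.00102).

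Mxi1 encodes MXI1, a further antagonist of the MXD type, at chr19:53310518-53375810 on the plus strand. Its values were 5.97, 6.22 and 6.09 log2 CPM with CpG and 6.47, 6.34 and 6.39 without. The groups did not overlap, although replicate 2 differed by no more than -0.12 between stimulated and unstimulated cells. Mxi1 fell with a log2FC of -0.31 (SE 0.077, 95% CI -0.48 to -0.14, FDR = 0.00446), the smallest change among the 6 members that passed.

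Mxd3 encodes MAD3, the member of the MXD group known from dividing cells. It measured -1.01, -0.46 and 0.044 log2 CPM with CpG and -1.91, -0.093 and -0.055 without. Samples of both groups lay on both sides of the value of 10 reads, and the groups overlapped. The log2FC was 0.21 with a standard error of 0.55 (95% CI -1.01 to 1.43, FDR = 0.741), an interval that holds a 2-fold difference in either direction. Mxd3 shares 4.43% of its exon bases with Prelid1 on the opposite strand, whose mean is 6.62 log2 CPM, and without strand in the counting reads of both cannot be told apart.

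Mga encodes the largest protein of the network, which carries a second DNA-binding domain of the T-box type. Its values were 7.81, 7.56 and 7.81 log2 CPM in stimulated and 7.73, 7.68 and 7.72 in unstimulated samples. Unstimulated values fell inside the range of stimulated ones, and the log2FC was 0.016 (SE 0.076, 95% CI -0.15 to 0.19, FDR = 0.859). Mlx, which encodes the partner of MNT, MXD1, MXD4 and the glucose-sensing factors, measured 4.02, 4.22 and 4.14 with CpG and 4.11, 3.96 and 4.16 without. These groups overlapped as well, at a log2FC of 0.049 (SE 0.099, 95% CI -0.17 to 0.27, FDR = 0.670). Of the exon bases of Mlx, 19.3% are shared with Psmc3ip on the opposite strand (mean 1.77 log2 CPM), which adds uncertainty to its level.

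To compare levels between members, CPM was divided by the kb of all exons of a gene merged. In unstimulated cells the order was Myc with a mean of 335 CPM per kb, Mnt with 39.1, Max with 35.9, Mga with 13.7, Mxi1 with 12.4, Mlx with 8.46, Mxd1 with 3.74, Mxd4 with 2.21, Mycn with 0.373 and Mxd3 with 0.305. Neighbours in this order did not overlap in their ranges over 3 samples, except Mnt with Max and Mycn with Mxd3. In CpG-stimulated cells Myc had 693, Max 38.8, Mnt 24.7, Mga 13.9, Mxi1 10.0, Mlx 8.75, Mxd1 2.21, Mycn 0.964, Mxd3 0.317 and Mxd4 0.245 CPM per kb. Overlap was seen between Mxi1 and Mlx and between Mxd3 and Mxd4. Max and Mnt thus stood apart only with CpG, and Mxd4 went from the eighth place to the last, next to Mxd3. With the length of the longest transcript instead, Max (66.5 CPM per kb) was above Mnt (39.4) in unstimulated cells too, without overlap. Mxi1 (16.8) was also above Mga (15.0) in these cells. In stimulated cells Mxd4 (0.450) came before Mxd3 (0.431), with overlap. These places thus depend on which gene length divides the CPM.

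**Figure D2:**
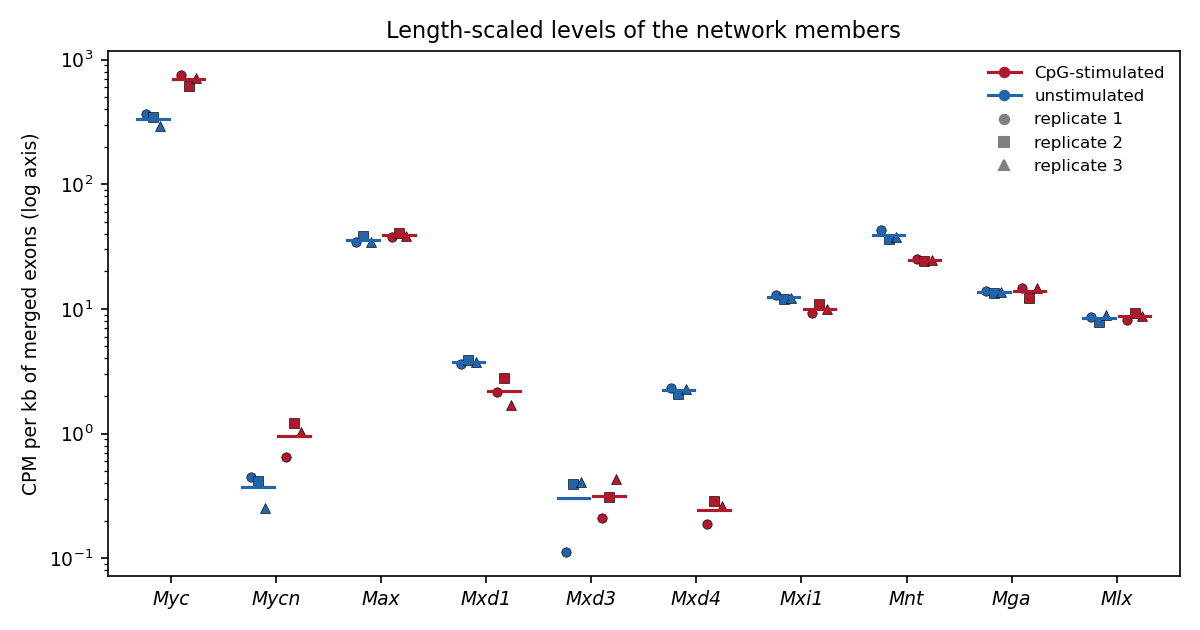
CPM per kb of merged exons (log axis) of the network members in each CpG-stimulated (red) and unstimulated (blue) sample, with bars at the means of 3 samples and replicates as symbols. Myc is above all other members in every sample, with means of 693 and 335 CPM per kb.

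Myc made up 88.6%, 85.8% and 87.6% of the summed level of the 10 members in stimulated replicates 1 to 3, and 75.5%, 75.1% and 71.8% in unstimulated ones. The share was higher in each stimulated sample. The sum over Mxd1, Mxd3, Mxd4, Mxi1 and Mnt was 36.7, 38.6 and 37.2 CPM per kb with CpG and 61.9, 54.7 and 56.7 without, and it was lower in each stimulated sample. Mnt alone accounted for most of that sum, with 3.13% and 8.69% of the network level in the means of stimulated and unstimulated samples, whereas Mxd4 accounted for 0.0315% and 0.494%, or 0.0484% and 0.747% with the longest transcript. The ratio of Myc to the sum of these 5 genes was 20.7, 15.9 and 19.0 in stimulated and 5.94, 6.32 and 5.14 in unstimulated samples. Groups did not overlap, and the mean ratio was 3.19 times as high with CpG. Myc exceeded Max by a ratio of 17.9 ± 2.56 with CpG and 9.35 ± 1.12 without (SD, n = 3 each); with the longest transcript these ratios were 11.2 and 5.86. The ratio of Max to the 5 antagonists was 1.04 ± 0.015 against 0.624 ± 0.071, or 1.68 against 1.01 with the longest transcript. These levels are of mRNA and carry no test.

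The letters CACGTG, the E-box that MYC-MAX and MXD-MAX dimers are known to bind, were searched in windows of 300 bases around gene starts from RefSeq (GRCm38.p6), from 250 bases before to 50 after the start. The motif is its own reverse complement, so a match holds for both strands. Windows were given for 9 members, and 4 of them held the motif, where 8.09% of 27025 genes did. Of these 4, Mxd4 and Mnt fell with CpG and Max and Mlx did not pass the test. The 30 bases around each match are shown to let the 4 sites be compared, each on the strand of its gene, with the E-box in capitals. They lie at chr5:34187912-34187941 (minus strand), chr11:74830789-74830818 (plus), chr12:76962234-76962263 (minus) and chr11:101087238-101087267 (plus), and the first base of the motif is at -219, -123, -3 and -40 from the start of Mxd4, Mnt, Max and Mlx.
Mxd4: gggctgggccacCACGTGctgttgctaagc
Mnt: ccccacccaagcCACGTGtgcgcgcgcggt
Max: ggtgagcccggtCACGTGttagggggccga
Mlx: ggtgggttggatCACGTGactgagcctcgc
None of the 4 stretches overlaps a gene annotated in GENCODE M21; they lie upstream of its gene starts, and that of Max spans the RefSeq start. Mycn, Mxd1, Mxd3, Mxi1 and Mga did not hold these letters in their windows. A match is a description of the sequence and no measure of binding.

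Of 3 other network proteins, Mlxip, which encodes the glucose-sensing partner MondoA, fell with a log2FC of -0.28 (SE 0.068, FDR = 0.00371). Its values were 8.13, 8.19 and 8.29 log2 CPM with CpG and 8.46, 8.42 and 8.58 without. Mycl, the remaining MYC paralog, did not exceed the detection limit in any sample, with values between -5.17 and -2.45. Mlxipl, which encodes ChREBP, lay between -5.37 and -2.09, and neither gene was tested. Txnip, a target of MLX dimers that restrains glucose uptake, measured 5.19, 5.72 and 5.54 with CpG and 8.16, 8.41 and 8.50 without, and fell with a log2FC of -2.87 (SE 0.13, FDR = 5.35e-08). Arrdc4, of the same family and known for the same control, was too low for the test, with -3.11, -2.73 and -1.37 in stimulated and -1.04, 0.38 and -0.70 in unstimulated samples, and passed when every gene above the value of no reads was tested.

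Genes commonly listed as activated by MYC were tested in 60 of 61 cases, and 54 were higher with CpG, 3 were lower and 3 did not pass. Their median log2FC was 1.23, compared with 0.0033 over all tested genes, of which 37.6% were higher and 36.7% lower. This list, like the others, was chosen with earlier results of these data known. Its counts and median are therefore a description and no independent test. Hk2, which encodes hexokinase 2, rose with a log2FC of 2.84 (SE 0.12), Tmem97 with 2.50 (SE 0.14), and the nucleoside transporter gene Slc29a2 with 2.47 (SE 0.16). The 3 that fell were Sord, of the polyol pathway, with -2.02 (SE 0.37), the heterochromatin protein gene Cbx3 with -0.67 (SE 0.067) and the replicative helicase gene Mcm4 with -0.52 (SE 0.075). Sord had -1.22 on the log2(CPM + 1) scale, and with all 6 samples required above the value of 10 reads it was not tested and 2 genes were lower. Dusp2 (0.12), Plk1 (0.12) and Plk4 (0.12) did not pass and Map3k6 was not tested, and these 4 are named after their values were seen. In the promoter windows, 15 of 55 of these genes, or 27.3%, held CACGTG, where 8.09% of all genes with a window did. It was held by 1 of 15 coactivator genes, 1 of 13 SIN3-HDAC genes, 1 of 7 PRC1.6 genes, 2 of 15 stability genes, 0 of 4 MYC-repressed genes, 0 of 7 other E-box factors, 1 of 3 other network proteins and 1 of 2 MLX targets.

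Of 6 genes commonly listed as repressed by MYC, 4 fell, 1 rose and 1 was not tested, with a median log2FC of -2.06 over 5 genes, where 36.7% of all tested genes were lower and 37.6% higher. Cdkn1b, which encodes the CDK inhibitor p27, measured 5.32, 6.08 and 5.55 log2 CPM with CpG and 8.01, 8.18 and 8.37 without, a log2FC of -2.54 (SE 0.17). Thbs1 (-2.41, SE 0.47), the stress gene Gadd45a (-2.06, SE 0.21) and Ndrg1 (-1.28, SE 0.18) also fell. Thbs1 had -1.35 on the log2(CPM + 1) scale and did not enter the test when all 6 samples had to be above the value of 10 reads, which left 3 genes lower. Cdkn1a, which encodes the CDK inhibitor p21, went the other way, at 4.59, 5.10 and 4.65 with CpG and 2.48, 3.44 and 2.67 without, a log2FC of 1.91 (SE 0.23, FDR = 3.45e-05). Cdkn2b had values from -2.75 to 0.10 and overlapping groups.

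**Figure D3:**
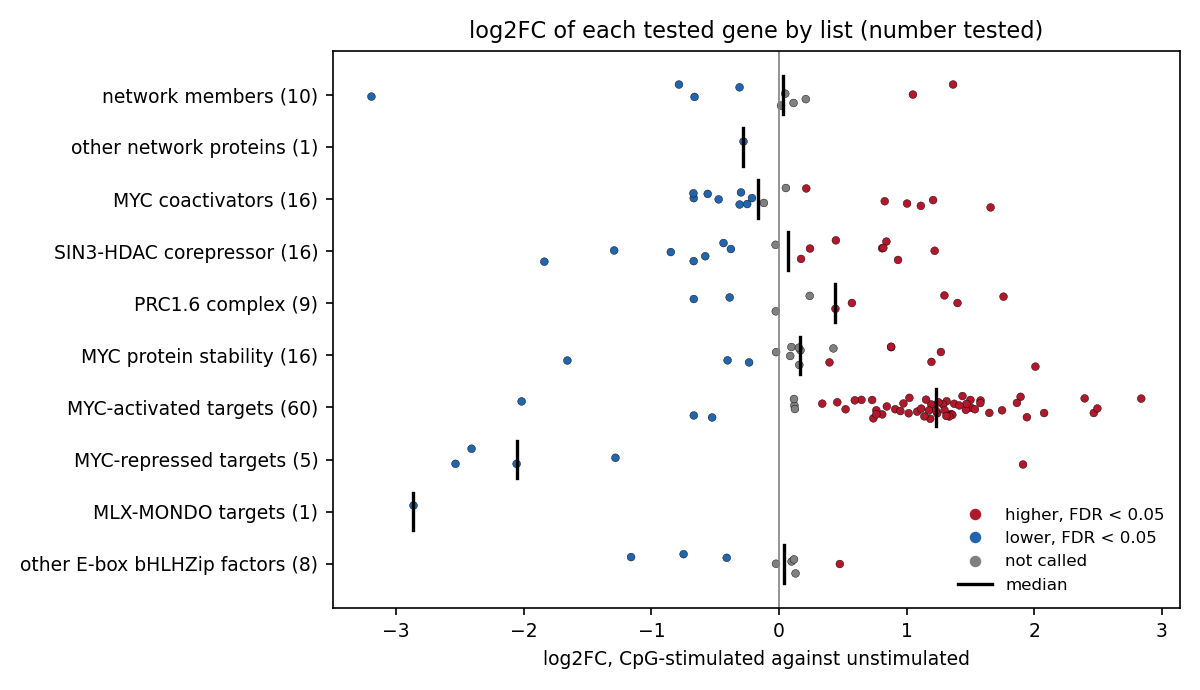
log2FC of CpG-stimulated against unstimulated samples (horizontal axis, 3 samples each) for each tested gene, arranged by list, in red for genes higher and blue for genes lower at an FDR under 0.05, grey for others, with the list's median as a black bar. Medians lie at 0.033 for the network members, 1.23 for MYC-activated and -2.06 for MYC-repressed targets. The lists were chosen with earlier results of these data known.

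Proteins known to bind MYC, listed here as coactivators, were counted in 16 genes, of which 6 (37.5%) rose and 8 fell. Their median log2FC was -0.17, where 37.6% of all tested genes were higher and 36.7% lower. The list is broad, and the 6 include Zbtb17 (0.21, FDR = 0.0249), which encodes Miz-1 and is named after its value was seen. The ATPase genes Ruvbl2 (1.66, SE 0.080) and Ruvbl1 (1.21, SE 0.079) and Wdr5 (1.11, SE 0.075), which encodes a chromatin anchor of MYC, rose the most. The scaffold gene Trrap fell by 0.67 on the log2 scale (SE 0.096), and Paf1 fell by 0.56 (SE 0.073). Ep400 (-0.12) and Smarcb1 (0.054), named after their values were seen, did not pass.

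The SIN3-HDAC corepressor, through which MXD proteins and MNT repress, had 8 of 16 genes higher and 7 lower, with a median of 0.073, beside 37.6% higher and 36.7% lower over all tested genes. With 16 genes these shares lie near those of all genes. The deacetylase gene Hdac2 rose with a log2FC of 1.22 (SE 0.065), Sap18 with 0.93 (SE 0.11) and Rbbp7 with 0.84 (SE 0.069). Arid4a (-1.84, SE 0.066), Arid4b (-1.29, SE 0.062) and Ing1 (-0.85, SE 0.071) fell, and Suds3 (-0.027, named after its value was seen) did not pass.

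Of 9 further genes of the Polycomb complex PRC1.6, to which MGA and MAX belong, 5 rose and 2 fell, with a median of 0.44, against 37.6% and 36.7% of all tested genes. Tfdp1 (1.76, SE 0.10), Pcgf6 (1.40, SE 0.090) and E2f6 (1.30, SE 0.13) rose, and Cbx3, also among the MYC-activated targets, and the ubiquitin ligase gene Rnf2 (-0.39, SE 0.076) fell. Rybp (-0.025) and Yaf2 (0.24, FDR = 0.0502), both named after their values were seen, did not pass, but Yaf2 did with the replicate number as a block (FDR = 0.0177).

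Among 16 genes for enzymes that act on the stability of MYC protein, 6 (37.5%) rose, 3 fell and 7 did not pass, with a median of 0.16; of all tested genes 37.6% were higher and 36.7% lower. With the replicate block 8 were higher, as Usp28 (FDR = 0.0322, from 0.0681) and Ppp2ca (FDR = 0.0174, from 0.0589) passed, both named after their values were seen. The kinase genes Pim1 and Pim2 rose with a log2FC of 2.01 (SE 0.062) and 1.27 (SE 0.11), and Set, which encodes an inhibitor of the phosphatase PP2A, with 1.19 (SE 0.075). Gsk3b, whose kinase marks MYC for degradation, measured 5.42, 5.32 and 5.37 log2 CPM with CpG and 7.06, 7.07 and 6.95 without, and fell with a log2FC of -1.66 (SE 0.065). Ppp2r5a (-0.40, SE 0.066) also fell. Huwe1, which encodes a ubiquitin ligase, had -0.23 (SE 0.088, FDR = 0.0335) and lost its call in 5 of 12 alternatives, among them those without CpG-stimulated replicate 2 (-0.14), unstimulated replicate 1 (-0.22) and unstimulated replicate 3 (-0.21).

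Other factors that bind E-boxes through the same type of domain were tested in 8 of 9 cases, with 1 higher, 3 (37.5%) lower and a median of 0.037, where 37.6% of all tested genes were higher and 36.7% lower. Tfap4 rose with a log2FC of 0.48 (SE 0.11), while Usf1 (-1.16, SE 0.083), the lysosomal regulator gene Tfeb (-0.75, SE 0.088) and Usf2 (-0.41, SE 0.062) fell. Tfe3 (0.099), Mitf (0.12), Srebf1 (-0.024) and Srebf2 (0.13) did not pass and Tfec was not tested, all named after their values were seen. With the replicate block 2 were higher, as Srebf2 passed (FDR = 0.0435, from 0.0779). The number of higher genes also ranged from 1 to 2 with single samples left out.

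Patterns most like those of Myc and Mxd4 were sought by the Euclidean distance between the 6 values of tested genes, with each gene's mean subtracted. The 5 genes nearest to Myc were Aven (distance 0.056), Mrps12 (0.11), Mybbp1a (0.13), Zfp72 (0.14) and Nudc (0.15), with a log2FC between 1.03 and 1.11. Nearest to Mxd4 were Rapgef4 (0.22), Hhex (0.26), Hist2h2be (0.31), Dpysl2 (0.31) and Cpt1a (0.32), with a log2FC between -3.33 and -3.05. Hist2h2be, with 2 stimulated samples above the value of 10 reads, had -1.96 on the log2(CPM + 1) scale and was not tested when all 6 samples had to be above it. Distances were taken over 6 samples, and replicate numbers shift the values of both groups together.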

How the data were processed

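The authors trimmed reads with Trim Galore 0.6.5, aligned them to mm10 with STAR 2.6.1a, counted them per gene with featureCounts (Subread 2.0.1), for libraries of a stranded kit, and quantile normalized them with voom in limma. The deposited values are log2 CPM with an offset of 0.5 reads, so depth per sample and total RNA per cell cannot be read from them. A gene without reads was taken to lie at the most common value, -5.15, which gives 17.8 M reads and covers counting error only. In low values, both samples of a replicate number share a shift that differs by gene.

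Values were fitted per gene with limma 3.58.1 in R 4.3.3 (lmFit, eBayes with a trend, two-sided), with no block, over genes above 10 reads in at least 3 samples. Deviations from the group means correlated at 0.435, 0.224 and 0.300 between samples of the same number and at -0.281 to 0.0279 between others. The labels do not say whether samples of the same number came from the same mouse. The shared shift can also give these correlations, so a pairing of the samples is not settled. Errors, intervals and FDR are from the fit without a block unless the block is named. For Myc the SE was 0.079 with the block, from 0.10. Gene lengths came from GENCODE M21. Members and lists were chosen with earlier results of these data known. Named genes were all members, all genes of the other network proteins, MYC-repressed and MLX targets, and in other lists the 3 called genes with the most positive and the 3 with the most negative log2FC; 1 gene is not reported here. Older symbols were matched, as Mycl1 for Mycl, and Hbb-bt had no match. Alternatives changed the filter, scale, trend, block, centring, samples and gene length.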

Additional observations from a re-analysis of the deposited data

How the results depend on the processing

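The counts of members called, 2 higher and 4 lower, were the same under all 12 alternatives. Over all genes, 3783 to 4124 were higher and 3721 to 4147 lower with single samples left out. With the replicate block 4390 genes were higher and 4287 lower, from 4227 and 4123, and 2 and 4 members. The block gave calls to Yaf2, Srebf2, Usp28 and Ppp2ca, and it changed no other call among members and listed genes outside the markers. Of the erythroid markers, Slc4a1 (-0.47, FDR = 0.00719, from 0.623) was called lower with the block. Hbb-bs (0.21, FDR = 0.0245, from 0.856) was called higher, and both are named after their values were seen.

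Of 119 values of member log2FC, 114 kept direction and call and 5 reversed, all in members that did not pass, with single samples left out: Mxd3 ranged from -0.40 to 0.53, Mlx from -0.010 to 0.10 and Mga from -0.027 to 0.10; the cause was not tested. Mxd4 ranged from -3.32 to -3.02 and Myc from 0.95 to 1.13 in these fits. Of 585 values of the other named genes, 580 kept direction and call, and 5, all of Huwe1, lost the call.

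The length of the longest transcript moved the ratio of Myc to Max to 11.2 with CpG and 5.86 without. It moved that of Max to the antagonists to 1.68 and 1.01. The CPM stayed the same, while the length of Max went from 3.598 to 1.942 kb and that of Myc from 2.717 to 2.338 kb. Mxd3 had the fewest reads of the members, about 12.3 and 10.6 in the group means; the part of depth in its wide interval was not tested.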
